A study of Mus musculus with 2 samples.

Results

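The genes described here are 10 mouse genes that mark developmental time in neural progenitor cells, out of 31253 genes that the deposited table could be matched to. They were taken by name. The 7 fetal-type genes were the RNA-binding proteins Lin28a and Lin28b, the chromatin proteins Hmga1 and Hmga2, and the mRNA-binding proteins Igf2bp1, Igf2bp2 and Igf2bp3. The other 3 were the nuclear factor I (NFI) transcription factors Nfia, Nfib and Nfix, which mark late progenitors and glia. The study cultured mouse neural retina progenitor cells (mNRPCs) from adult retina and sequenced RNA of the cells and of retina tissue. The mNRPC library came from cells at passage 24, grown on Matrigel in a defined medium with bFGF and CHIR99021, an inhibitor of the kinase GSK3. The retina library came from whole retina tissue that was not cultured. Both were of strain C57BL/6, neither label names a transgene or an edited allele, and the labels give neither the age of the retina nor the number of mice behind either library. The comparison asks whether the cultured cells carried a fetal-type or an adult-type profile of these genes. There was 1 library per group, so no difference below has a replicate check and no test was made.

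LIN28A and LIN28B bind the precursors of the let-7 microRNAs and block their maturation. Mature let-7 in turn represses mRNAs that carry its target sites, among them those of Lin28, Hmga2 and the Igf2bp genes, so that in the embryo high LIN28 goes with low let-7 and with high HMGA2 and IGF2BP, and the balance reverses as tissues mature. In the retina the NFI factors are expressed in late progenitors and in Müller glia, where they take part in leaving the cell cycle and in forming bipolar cells and Müller glia.

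The let-7 sequences link most of these genes and are shown first. In the RefSeq miRNA table (build GRCm38.p6) the family had 9 mature names from 11 genes, all of 22 bases and all with the same seed. A selection is printed 5′ to 3′ with the seed, bases 2 to 8, in capitals. They lie at chr13:48538239-48538260 (minus strand, Mirlet7a-1), chr13:48536078-48536099 (minus strand), chr9:106178846-106178867 (plus strand) and chrX:151913229-151913250 (plus strand).
mmu-let-7a-5p: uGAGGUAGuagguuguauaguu
mmu-let-7d-5p: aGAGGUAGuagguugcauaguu
mmu-let-7g-5p: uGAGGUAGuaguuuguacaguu
mmu-miR-98-5p: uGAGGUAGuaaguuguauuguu

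The seed pairs with CTACCTC in an mRNA, and an A after it makes the longer match CTACCTCA. In the longest annotated 3′ untranslated region of each gene (GENCODE on GRCm38, sense strand only) all 7 fetal-type genes held the 7-base match at least once. Hmga2, Lin28b and Igf2bp1 held 4 each, Lin28a held 2, and Hmga1, Igf2bp2 and Igf2bp3 held 1 each. Nfia held 1 in a region of 7639 bases, and the letters do not occur in those of Nfib and Nfix. Of 20657 mouse genes with such a region of at least 50 bases, 9.18% held the match, and 0.155% held 3 or more. Length matters for this count: among genes with a region within 20% of the same length, the match occurred in 15.5% for Hmga2, 33.7% for Igf2bp1, 8.07% for Hmga1 and 41.7% for Nfia. A match is a description of the sequence and does not show that let-7 acts there. The match nearest the stop codon is printed for each gene, with both for Lin28a, as 29 bases of the mRNA strand with the match in capitals.
Lin28a match 1: agcctgttgaaCTACCTCAtttttgccga
Lin28a match 2: tcgccacaaacCTACCTCActgtgttgaa
Lin28b match 1: gggcgggaagtCTACCTCAtgcaagcaca
Hmga1 match 1: ctgttcacaaaCTACCTCtggacggttgt
Hmga2 match 1: acattcaatttCTACCTCAgcatcagttg
Igf2bp1 match 1: tgcgaagtaaaCTACCTCAaggtgtgaag
Igf2bp2 match 1: acaaataaaagCTACCTCAggtgtttttt
Igf2bp3 match 1: tttttactcaaCTACCTCAggtattcagt
Nfia match 1: caggagaagtgCTACCTCtgatctaacta

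The Lin28a matches lie at chr4:134005179-134005207 and chr4:134004541-134004569. The others, in the order printed, lie at chr10:45381012-45381040, chr17:27563281-27563309, chr10:120364214-120364242, chr11:95961768-95961796, chr16:22059463-22059491, chr6:49086777-49086805 and chr4:98117922-98117950. Hmga1 and Nfia are on the plus strand and the rest on the minus strand, and all lie in 3′ untranslated exons.

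**Figure D1:**
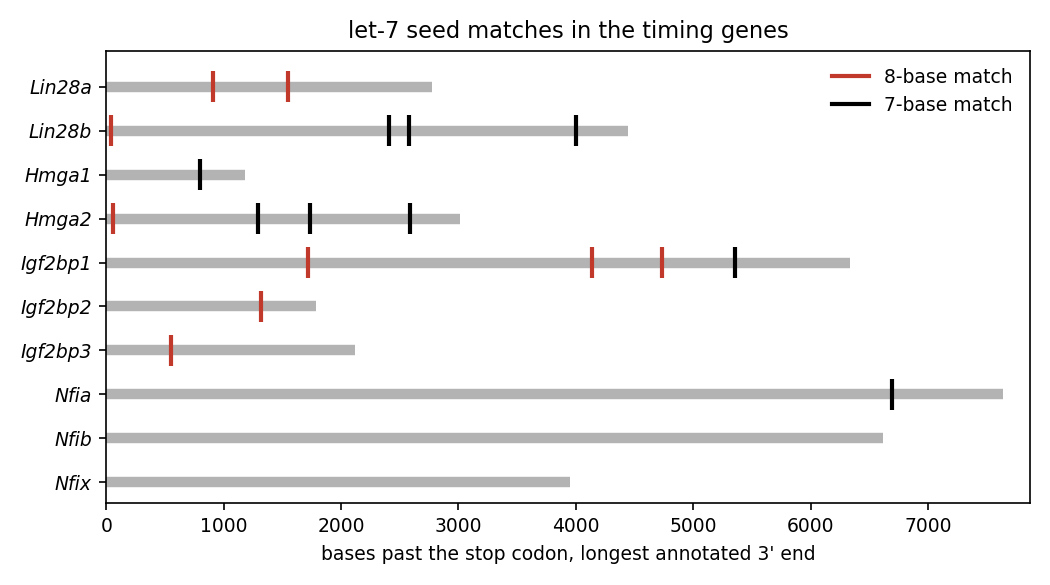
Position of each let-7 seed match along the longest annotated 3′ untranslated region, in bases past the stop codon, for the 10 genes. Grey bars show the region, red ticks the 8-base match and black ticks the 7-base match. Lin28b, Hmga2 and Igf2bp1 carry 4 matches each, and Nfib and Nfix carry none.

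The let-7 RNAs themselves could not be read from these libraries. All 12 let-7 family hairpin genes in the table were listed at 0 in both libraries, and their transcripts are 83 to 108 bases long. These zeros are no measure of mature let-7.

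Levels are in FPKM, fragments scaled by transcript length and by the fragments mapped in the library, so they can be compared between genes per length, and each gene is the sum of its transcript rows. From the lowest values, which gather at the worth of 1 fragment, the depth was estimated at about 6501300 fragments for mNRPCs and 5035010 for retina. The fragment numbers below come from that estimate, and the 95% intervals and the limit of 3 fragments cover counting error only. A difference is the log2(FPKM + 1) of mNRPCs minus that of retina. This scale makes changes of genes near or under 1 FPKM look smaller than they are. Of 13780 genes with at least 1 FPKM in either library, 24.5% lay at least 2-fold higher on this scale in mNRPCs and 30.0% at least 2-fold lower, and the median difference was -0.12. The FPKM of mNRPCs summed to 616860 and those of retina to 432256. With both rescaled to the same sum the median moved to -0.68, and the share of the higher calls among all calls went from 44.9% to 30.2%, with 18.4% of the genes compared higher and 42.4% lower. With the 14 rod and cone marker genes left out before this rescaling, the share of higher calls was 29.3% and the median -0.67. These are bulk samples, and fewer cells of a type and less RNA per cell cannot be told apart.

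Against this background 6 of the 10 genes were at least 2-fold higher in mNRPCs (Hmga1, Hmga2, Igf2bp2, Igf2bp3, Nfib and Nfix), 1 was at least 2-fold lower (Lin28a), and 3 lay between (Lin28b, Igf2bp1 and Nfia). In the fetal-type group 4 of 7 were higher and 1 was lower, with a median difference of 2.73. In the NFI group 2 of 3 were higher and 0 lower, with a median of 2.15. Taken against the all-gene median, the differences of the 10 genes ran from -1.70 (Lin28a) to 6.11 (Hmga2). So the fetal-type and the late-type genes did not separate by direction. On the filter of 1 FPKM, 9 of the 10 genes passed, and the counts here cover all 10. In mNRPCs the order of levels was Hmga1, Hmga2, Nfib, Nfix, Igf2bp2, Igf2bp3, Nfia, Lin28b, Igf2bp1 and Lin28a. In retina it was Hmga1, Nfix, Nfib, Nfia, Lin28a, Igf2bp2, Lin28b, Hmga2, Igf2bp1 and Igf2bp3. With 1 library each, no replicate spread is known for neighbours in either order.

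**Figure D2:**
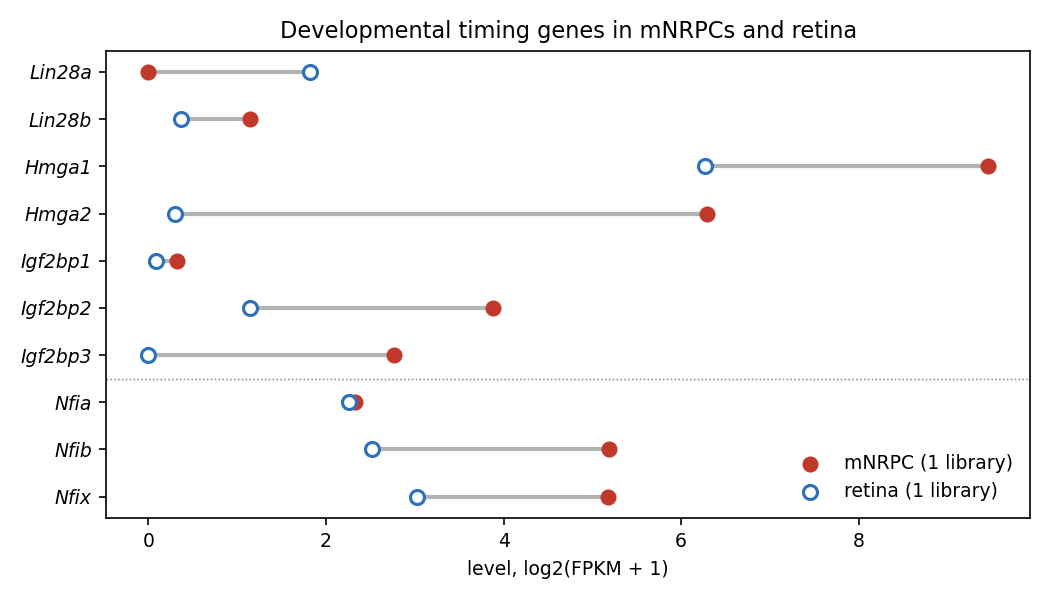
Level of each gene in the mNRPC library (filled) and the retina library (open) as log2(FPKM + 1), with a grey line joining the pair and a dotted line between the fetal-type and the NFI genes. Lin28a is the only gene with the open point to the right, and Hmga2 has the longest line.

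**Figure D3:**
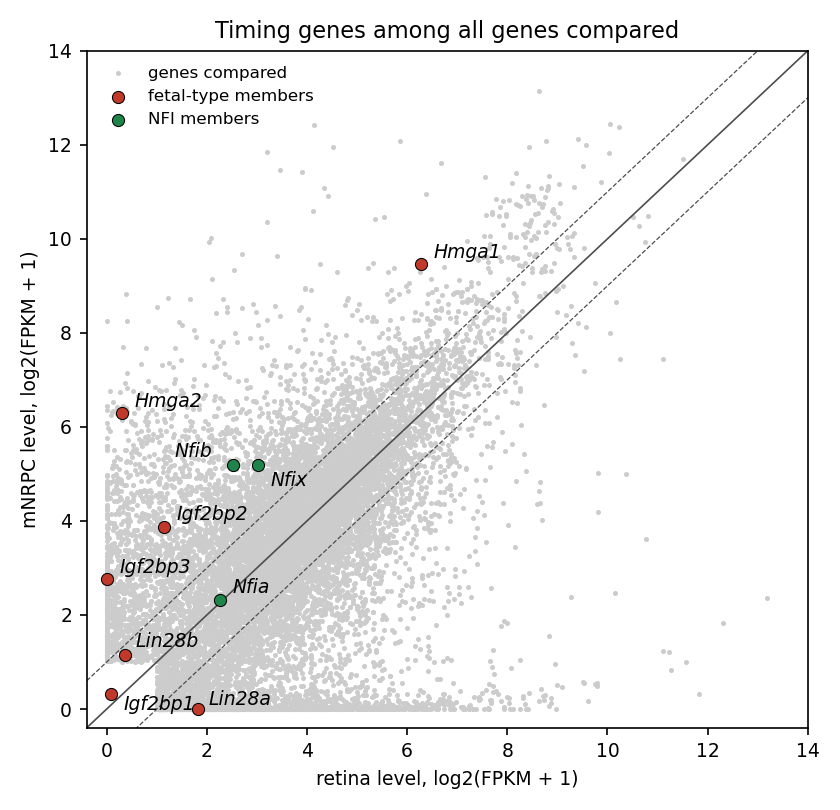
Level in mNRPCs against level in retina, both as log2(FPKM + 1), for the 13780 genes compared (grey) and the 10 genes (red, fetal-type; green, NFI). The solid line marks equal levels and the dashed lines a 2-fold difference. Igf2bp1 lies under the filter of 1 FPKM and is drawn for completeness.

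Lin28a and Lin28b differed in opposite directions, and both were low. Lin28a (chr4:134003330-134019196), the form typical of pluripotent cells, was listed at 0 in mNRPCs, where 3 fragments would be 0.132 FPKM, and at 2.53 FPKM in retina, from about 44.7 fragments. The difference was -1.82, and no fold is given against a library at 0. In retina the 1 curated row held 44.8% of the Lin28a signal and a predicted transcript row 55.2%. With the curated row alone the difference was -1.09. Lin28b (chr10:45376617-45486314), its paralogue, was at 1.20 FPKM in mNRPCs and 0.291 FPKM in retina. That is 4.14-fold (95% counting interval 1.89 to 10.03) on 42.2 and 7.91 estimated fragments, but only 0.77 on the scale with 1 FPKM added, under the 2-fold limit. Of the mNRPC signal of Lin28b, 90.0% lay on predicted rows. The curated row alone was at 0.120 and 0.0673 FPKM, a difference of 0.07. The 2 genes together summed to 1.20 FPKM in mNRPCs and 2.82 FPKM in retina.

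The pluripotent cell markers give context for Lin28a. Of 6, 4 were listed at 0 in mNRPCs (Pou5f1, Zfp42, Dppa5a and Tdgf1), and Nanog was at 0.282 FPKM there and 1.20 FPKM in retina. Pou5f1, Zfp42 and Dppa5a were also listed at 0 in retina. Esrrb, at 113.8 FPKM in retina and 0.0650 FPKM in mNRPCs, is a gene that rods also express.

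The HMGA genes were the highest of the fetal-type group in mNRPCs. These proteins bind AT-rich DNA through AT-hook motifs and bend and open chromatin. Hmga1 (chr17:27556574-27563672) was at 701 FPKM in mNRPCs, rank 131 of all genes, and at 76.2 FPKM in retina, rank 880. The fold was 9.20 (95% counting interval 8.48 to 9.99) and the difference 3.18. Hmga2 (chr10:120361268-120476469) was at 77.7 FPKM in mNRPCs, rank 1116, on about 1873 fragments. In retina it was at 0.235 FPKM, rank 14959, on about 4.39 fragments. The fold was 331 with an interval of 141 to 1332, wide because of the few retina fragments, and the difference was 5.99, the largest of the 10 genes. The HMGA sum was 779 FPKM against 76.5 FPKM, 10.2-fold. Hmga2 made up 9.97% of that sum in mNRPCs and 0.307% in retina, so both libraries held mostly Hmga1.

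Hmga1 had 14 curated transcript rows, and 13 of them were higher in mNRPCs. The make-up of the sum differed: NM_001166541 held 40.8% of Hmga1 in mNRPCs (286 FPKM) and 15.4% in retina (11.7 FPKM). In contrast, NM_001025427 held 32.2% in mNRPCs (226 FPKM) and 45.8% in retina (34.9 FPKM). These transcripts overlap over most of their length, so the split is an estimate of the quantifier and is less certain than the sum. The exception among the rows was NM_001166537, at 4.77 FPKM and 4.98 FPKM. Copies of these genes share sequence with them and make the split between loci uncertain. Hmga1b was at 0.110 FPKM in mNRPCs and 0.00012 FPKM in retina, and Hmga2-ps1 was at 2.98 FPKM and 0.175 FPKM. In mNRPCs Hmga2-ps1 came to 3.84% of Hmga2, but in retina to 74.5% of it, so the low retina level and the 331-fold ratio are uncertain. With the copy added to Hmga2 the ratio was 197. Hmga2 itself was measured by 1 row.

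The IGF2BP proteins bind mRNAs in the cytoplasm and affect their stability, transport and translation. Igf2bp2 (chr16:22059009-22163299), the member best known from adult tissue, was at 13.7 FPKM in mNRPCs and 1.21 FPKM in retina. This was 11.3-fold (7.42 to 17.8) on 348 and 23.8 estimated fragments, with a difference of 2.73. Igf2bp3 (chr6:49085218-49215469), typical of fetal tissue and of tumours, was at 5.79 FPKM in mNRPCs from about 164 fragments. It was listed at 0 in retina, where 3 fragments would be 0.137 FPKM, and the difference was 2.76. Of its mNRPC signal 91.6% lay on the curated row. Igf2bp3 overlaps the span of Malsu1, which was at 19.3 FPKM in mNRPCs and 4.30 FPKM in retina. Whether strand was used in counting is not given in the sources used here. Igf2bp1 (chr11:95957163-96005944), the classical let-7 target of the family, was at 0.254 FPKM in mNRPCs and 0.0649 FPKM in retina. The ratio was 3.91 with a counting interval of 1.01 to 19.6 on 13.8 and 2.74 estimated fragments. The retina value lay under its limit of 3 fragments (0.0711 FPKM) and the mNRPC value above its own (0.0551 FPKM). The family sum was 19.8 FPKM against 1.28 FPKM, 15.5-fold. Igf2bp2 made up 69.4% of it in mNRPCs and 94.9% in retina, and Igf2bp3 made up 29.3% in mNRPCs.

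Members with the same number of let-7 matches were at different levels, and the part of let-7 in these levels was not tested. Among the 3 genes with 4 matches, Hmga2 was at 77.7 FPKM in mNRPCs while Lin28b was at 1.20 FPKM and Igf2bp1 at 0.254 FPKM.

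The NFI genes bind DNA as dimers and act as activators or repressors. Nfib (chr4:82290173-82506751) was at 35.6 FPKM in mNRPCs and 4.75 FPKM in retina, 7.48-fold (6.39 to 8.79), a difference of 2.67. Nfix (chr8:84704712-84801238) was at 35.3 FPKM in mNRPCs and 7.16 FPKM in retina, 4.93-fold (3.84 to 6.41), a difference of 2.15. Nfia (chr4:97578066-98118876) was at 4.01 FPKM and 3.78 FPKM, 1.06-fold (0.873 to 1.29), a difference of 0.07. That difference turned to -0.38 with the libraries rescaled to the same sum and to -0.03 with upper quartile scaling. It was -0.40 with the libraries rescaled to the same sum after rod and cone genes were left out. So the counting interval of Nfia included no difference, while those of Nfib and Nfix lay above it. All 7 rows of Nfib and all 4 curated rows of Nfix were higher in mNRPCs, the 6 predicted Nfix rows holding 0.0348% of its mNRPC signal, and the 8 rows of Nfia were split, with 4 higher and 4 lower. A noncoding gene that overlaps the Nfia span, E130114P18Rik, was at 0.164 FPKM in mNRPCs and 10.8 FPKM in retina.

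With the remaining family gene Nfic, at 33.6 FPKM and 19.4 FPKM, the family summed to 108 FPKM in mNRPCs and 35.0 FPKM in retina, 3.09-fold. The composition also differed. Nfic held 55.2% of the family sum in retina and 31.0% in mNRPCs. Nfib went from 13.6% of the sum in retina to 32.8% in mNRPCs, Nfix from 20.4% to 32.5%, and Nfia from 10.8% to 3.70%.

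The glial genes that NFI factors are known to regulate did not follow Nfib and Nfix. Of 12 such genes 0 were higher in mNRPCs and 10 were lower, beside 24.5% and 30.0% over all genes compared. Their median difference was -3.17. The astrocyte filament gene Gfap was listed at 0 in mNRPCs and at 5.33 FPKM in retina. Rlbp1, the retinoid-binding protein of Müller glia, was at 0.0986 FPKM in mNRPCs and 202 FPKM in retina. The lipid carrier Apoe was at 4.21 FPKM and 618 FPKM, and the glutamate transporter Slc1a3 at 0.0299 FPKM and 44.8 FPKM. The exception at the other end was the glycolytic enzyme Aldoc, at 173 FPKM and 187 FPKM. Aldh1l1, a folate enzyme of astrocytes, was at 0.0197 FPKM and 2.53 FPKM. The retina holds mature Müller glia: of 7 Müller glia markers 6 were lower in mNRPCs, Kcnj10 was listed at 0 there, and Vim, an intermediate filament of many cultured cells, was at 3138 FPKM against 101.2 FPKM. The summed level of those 7 markers was 3188 FPKM in mNRPCs and 1420 FPKM in retina. The part of Müller glia content in the NFI differences was not tested.

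Other factors of retinal developmental time were mixed. Of 12 early factors only 4 reached 1 FPKM in either library. The secreted factor Gdf11, which limits the time window for ganglion cell production, was at 26.8 FPKM in mNRPCs and 3.11 FPKM in retina. Foxp1 was at 7.97 FPKM and 3.47 FPKM, a difference just over the 2-fold limit. That difference went under the limit when rescaled to the same sum (0.62) and with upper quartile scaling (0.89). With rod and cone genes left out before rescaling to the same sum it was 0.51. The POU factors Pou2f1 (1.71 FPKM and 6.92 FPKM) and Pou2f2 (listed at 0 and 1.99 FPKM) were lower in mNRPCs, and Ikzf1 was at 0.0343 FPKM and 0.565 FPKM. Of 12 late factors 2 were higher and 5 lower, beside 24.5% and 30.0% over all genes compared. Id3, an inhibitor of bHLH factors, was at 241 FPKM in mNRPCs and 22.7 FPKM in retina, and Sox9 at 13.2 FPKM and 3.28 FPKM. Id1 was at 24.1 FPKM and 12.1 FPKM, a difference of 0.93. Casz1, a zinc finger factor that follows Ikzf1 in retinal progenitors and stays on in photoreceptors, was at 0.0752 FPKM and 35.4 FPKM. The nuclear receptor Rorb was at 0.627 FPKM and 39.7 FPKM, and Sox8 at 0.246 FPKM and 7.86 FPKM. The median was -0.25 for the early and -0.25 for the late list, beside -0.12 for all genes compared.

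Of 16 genes that make or break down let-7, 1 was at least 2-fold higher in mNRPCs and 3 at least 2-fold lower, with a median of -0.39. All genes compared had 24.5% higher and 30.0% lower. With the libraries rescaled to the same sum the counts of the 16 genes were 0 and 7. Under that scaling 18.4% of all genes were higher and 42.4% lower. The Dicer cofactor gene Prkra was at 32.5 FPKM in mNRPCs and 11.3 FPKM in retina, a difference of 1.45 that became 0.99 when rescaled. Syncrip was at 42.1 FPKM and 25.3 FPKM. The uridylyl transferases, which tag LIN28-bound let-7 precursors for decay, went apart: Tut4 was at 2.11 FPKM and 6.02 FPKM, a difference of -1.18, and Tut7 was at 9.99 FPKM and 5.81 FPKM, a difference of 0.69. Ago4 was at 0.250 FPKM and 5.27 FPKM. The RNA-binding protein Msi1, a neural stem cell gene also used by photoreceptors, was at 0.322 FPKM and 39.6 FPKM.

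Among 30 other genes reported as let-7 targets, 8 (26.7%) were higher and 8 (26.7%) lower. These shares are near the 24.5% and 30.0% of all genes compared. The median was 0.03, near that of all genes. Ccnd1, the G1 cyclin, was at 371 FPKM in mNRPCs and 4.26 FPKM in retina, a difference of 6.14. Thbs1, a matrix glycoprotein, was at 105 FPKM and 0.609 FPKM, and Myc at 17.3 FPKM and 0.257 FPKM. At the other end Arid3b was at 0.331 FPKM and 7.12 FPKM, and the kinase Map4k3 at 16.3 FPKM and 48.5 FPKM. Nr2e1, a nuclear receptor of neural stem cells, was listed at 0 in mNRPCs and at 3.94 FPKM in retina. The GTPase gene Nras was at 64.6 FPKM and 10.4 FPKM.

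Of 15 mRNAs known to be bound by IGF2BP proteins 14 were matched. Beside 24.5% higher and 30.0% lower over all genes compared, 7 of the 14 were higher and 4 lower. The median of these mRNAs was 0.74, which was 0.33 when rescaled. Some of them, such as Myc, Ccnd1 and Cdk6, are also in the let-7 list, and Hmga2 is 1 of the 10 genes, so the lists are not independent. The cyclooxygenase Ptgs2 was at 59.4 FPKM in mNRPCs and 0.302 FPKM in retina, and the hyaluronan receptor Cd44 at 99.3 FPKM and 2.54 FPKM. Actb, whose mRNA IGF2BP1 carries in neurons, was at 1066 FPKM and 200.5 FPKM. Igf2, which gave the family its name, was at 0.0371 FPKM and 8.09 FPKM, and the neuronal gene Mapt at 0.103 FPKM and 34.7 FPKM.

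The other high mobility group genes did not share the size of the HMGA difference. Of 9, 3 were higher (Hmgb1, Hmgb2 and Hmgb3) and 1 was lower, beside 24.5% and 30.0% over all genes compared. The median was 0.86. Hmgb3 was at 55.4 FPKM in mNRPCs and 12.5 FPKM in retina, and Hmgb2, a gene of dividing cells, at 34.6 FPKM and 10.04 FPKM. Hmgb1 was at 262 FPKM and 107.7 FPKM, a difference of 1.27 that was 0.77 when rescaled to the same sum. The nucleosome-binding Hmgn1 was at 277 FPKM and 765 FPKM, and Hmgn2 at 158 FPKM and 279 FPKM.

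**Figure D4:**
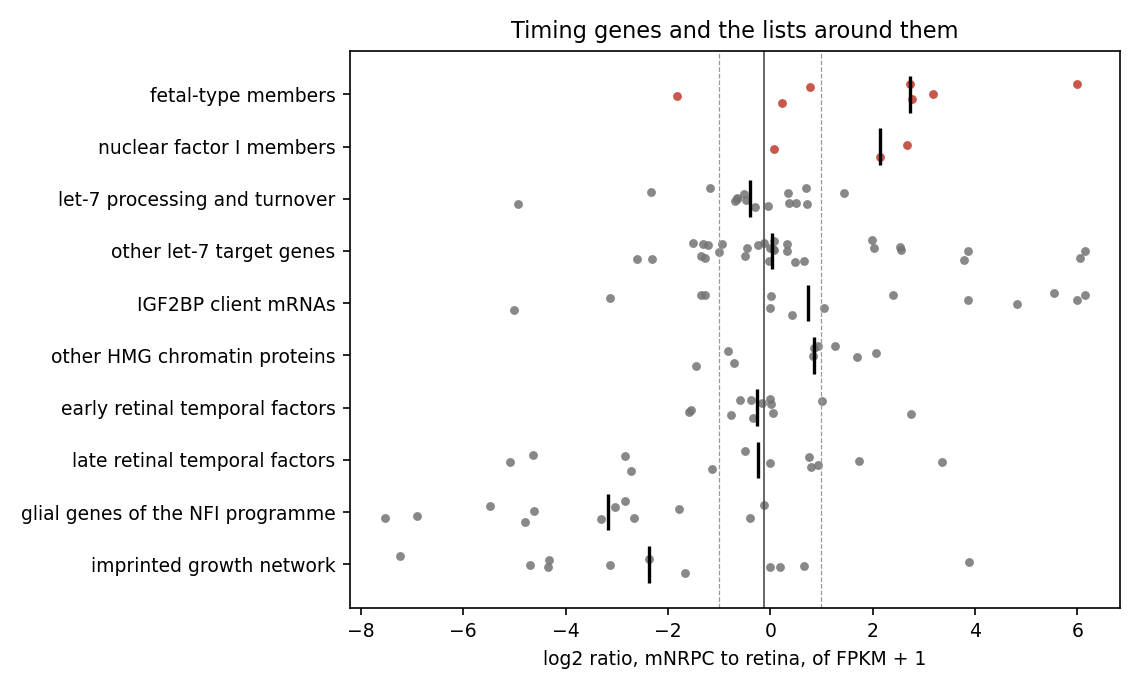
Difference between mNRPCs and retina, log2 of the FPKM + 1 ratio, for each gene (point) of each list, with the list median as a black bar. The solid line is the median of the 13780 genes compared (-0.12) and the dashed lines mark 2-fold. Points of the 10 genes are red. The medians of the 2 groups of the 10 genes lie at 2.73 and 2.15 and that of the glial list at -3.17.

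By likeness of level, the 3 genes nearest to Hmga2 in the plane of log2(FPKM + 1) over the 2 libraries were Angptl7 (77.0 FPKM and 0.158 FPKM), Sting1 (79.3 FPKM and 0.326 FPKM) and Twist1 (83.7 FPKM and 0.185 FPKM). Nearest to Lin28a were Hs3st4 (listed at 0 and 2.54 FPKM), Rprm (listed at 0 and 2.53 FPKM) and Kdm5d (listed at 0 and 2.54 FPKM). With 2 libraries this is a likeness of 2 values.

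Hmga1, Hmga2 and Igf2bp2, which were higher in mNRPCs, have promoters that the RefSeq table (GRCm38.p6) holds from 250 bases before the start to 50 after it. They were picked for print, after the counts were seen, from the higher genes whose promoter holds a GC box, and are shown 5′ to 3′ on the gene's strand with each GC box (GGGCGG, or CCGCCC on the other strand) in capitals. In all, 8 of the 10 genes had a promoter in the table, 12 promoters in total. The GC box occurred in 35.7% of 32851 promoters on either strand. Hmga1 held 4 and 74.0% G and C, Hmga2 held 1 and 57.7%, and Igf2bp2 held 2 and 76.7%, while the median over all promoters was 52.7%. The other higher genes differed from these: Igf2bp3 held 0, and of 4 Nfix promoters 1 held 2 and the rest 0. Lin28a, which was lower in mNRPCs, held 1, and Lin28b and Nfia held 0. With Lin28a the only lower gene, these counts do not show whether the GC box goes with the direction of the difference. A match of letters shows neither a bound factor nor a cause. The windows are chr17:27556324-27556623 (plus strand), chr10:120476420-120476719 (minus strand) and chr16:22163250-22163549 (minus strand).
Hmga1 promoter: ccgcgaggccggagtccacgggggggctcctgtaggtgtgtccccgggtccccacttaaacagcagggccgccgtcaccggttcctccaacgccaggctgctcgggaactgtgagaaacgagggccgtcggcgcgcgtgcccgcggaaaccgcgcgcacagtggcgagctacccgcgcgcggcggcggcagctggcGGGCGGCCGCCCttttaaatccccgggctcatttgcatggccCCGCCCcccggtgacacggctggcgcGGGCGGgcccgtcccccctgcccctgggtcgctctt
Hmga2 promoter: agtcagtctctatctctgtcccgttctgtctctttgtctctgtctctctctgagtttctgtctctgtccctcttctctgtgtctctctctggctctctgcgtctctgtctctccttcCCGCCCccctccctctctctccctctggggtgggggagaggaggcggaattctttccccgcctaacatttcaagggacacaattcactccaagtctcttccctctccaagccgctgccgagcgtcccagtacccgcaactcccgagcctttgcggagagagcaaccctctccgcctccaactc
Igf2bp2 promoter: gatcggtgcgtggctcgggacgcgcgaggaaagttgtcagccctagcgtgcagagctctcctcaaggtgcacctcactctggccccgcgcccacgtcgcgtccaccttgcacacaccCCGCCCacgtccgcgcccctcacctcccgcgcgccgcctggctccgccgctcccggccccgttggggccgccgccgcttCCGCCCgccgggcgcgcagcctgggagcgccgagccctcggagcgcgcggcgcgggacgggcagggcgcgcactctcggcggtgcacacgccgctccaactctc

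The labels of the libraries were set against cell type markers, with 24.5% of all genes compared higher in mNRPCs and 30.0% lower. Rod markers summed to 10.6 FPKM in mNRPCs and 21279 FPKM in retina, with all 8 lower in mNRPCs. Of 8 retinal progenitor markers 3 were higher in mNRPCs and 3 lower: Sox2 was at 231 FPKM against 18.5 FPKM and Nes at 9.42 FPKM against 0.841 FPKM, while Pax6 was at 123 FPKM and 100.7 FPKM. Rax, a defining marker of retinal progenitors, was listed at 0 in mNRPCs and at 81.7 FPKM in retina. Fibroblast or pericyte markers summed to 459 FPKM in mNRPCs and 15.0 FPKM in retina. Of those 8, 2 were at least 2-fold higher and 1 at least 2-fold lower, Col3a1 alone gave 450 FPKM in mNRPCs, and Lum and Rgs5 were listed at 0 there and Col1a2 was at 0.0843 FPKM. The part of such cells in the Hmga2 and Igf2bp differences was not tested.

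**Figure D5:**
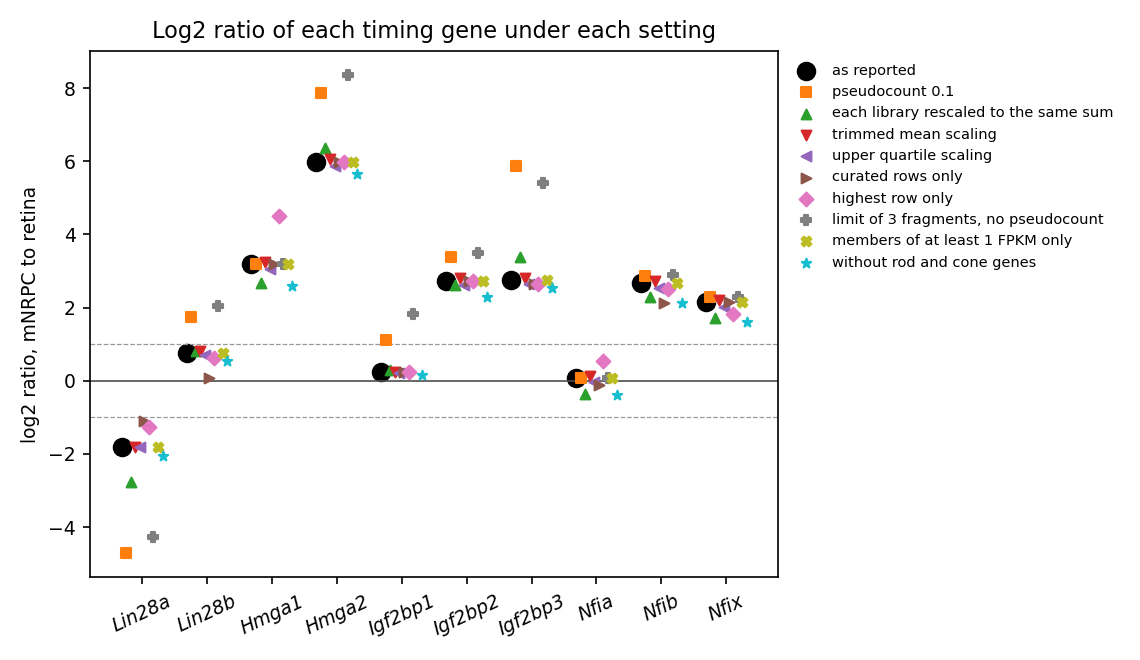
Difference (log2 ratio) of each gene under each processing setting, with the value as reported in black. The solid line marks no difference and the dashed lines 2-fold. Hmga1, Hmga2, Igf2bp2, Igf2bp3, Nfib and Nfix stay above the upper dashed line and Lin28a below the lower one under every setting drawn, and Nfia lies on both sides of 0.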

How the data were processed

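The authors deposited 1 table of FPKM per RefSeq transcript for both libraries. The study's methods name Bowtie 2 and eXpress for its treated cultures, and the submitters' processing notes name TopHat2 2.0.10 and GRCm38.p3, so the tool behind this table is uncertain. Of 106754 rows, 74283 (69.6%), holding 93.2% of the FPKM of mNRPCs and 89.9% of that of retina, were matched to genes by RefSeq accession without its version, and summed. Genes with at least 1 FPKM in 1 library were compared on log2(FPKM + 1). Sites came from GENCODE M21, and gene coordinates, promoters and miRNAs from RefSeq GRCm38.p6. Depth was estimated from the values of 6228 genes with 1 transcript row of at least 1500 bases. The method was tested on simulated counts drawn with the same transcript lengths. That simulation does not cover errors in the lengths or in the assignment of fragments. Over minimums of 500, 1500 and 2500 bases the depth ranged from 6338700 to 6501300 fragments for mNRPCs and from 4864070 to 5308840 for retina. Intervals of folds are exact binomial on estimated fragments. Those of differences combine exact Poisson limits of each library in quadrature, on the scale with 1 FPKM added. Members and lists were chosen with earlier results of these data known. All 10 genes are named. From each list the 3 largest and 3 smallest differences among genes at or over 1 FPKM are named, and others named were picked after their values were seen. The 3 nearest genes are given for the members at the extremes. H19 was not matched, and some genes that the rule names are not reported here. Python 3.11.15, pandas 2.3.3, numpy 2.4.6 and scipy 1.17.1 were used. Alternatives covered the pseudocount, scaling, transcript rows, low values, composition and threshold. The composition alternative left out the rod and cone marker genes and then rescaled both libraries to the same sum.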

Additional observations from a re-analysis of the deposited data

How the results depend on the processing

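The numbers of NFI genes at least 2-fold higher (2) and lower (0) were the same under all 10 alternatives, those for the higher count having been chosen after seeing the data. The 4 fetal-type genes at least 2-fold higher became 6 with a pseudocount of 0.1 FPKM or with low values set to 3 fragments, since Lin28b and Igf2bp1 then passed, and were 4 otherwise. The median difference of the fetal-type genes was 3.20 with a pseudocount of 0.1 and 3.20 with low values set to 3 fragments. It was 2.30 with the libraries rescaled to the same sum after rod and cone genes were left out. The median of the NFI genes was 1.73 when rescaled to the same sum. With rod and cone genes left out before that rescaling it was 1.61. These values lay outside the counting interval of the difference of the gene at the median, and the cause was not tested. Of 89 values of single genes under alternatives 33 lay outside the counting interval of that gene's reported difference. Nfia changed sign under 4 alternatives, the fourth being curated rows alone (-0.12). The lowest and highest differences were -4.72 and -1.09 for Lin28a, 0.07 and 2.05 for Lin28b, and 5.67 and 8.37 for Hmga2. No paired analysis was possible because the groups hold a lone library each. In retina, every fetal-type gene but Hmga1 rests on under 50 fragments.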

Other observations

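Genes of the imprinted growth network, which falls in many tissues after birth, were mostly lower in mNRPCs. Of 11 matched, 1 was at least 2-fold higher and 7 at least 2-fold lower, with a median difference of -2.37. The shares over all genes compared were 24.5% higher and 30.0% lower. Meg3, a maternally expressed long noncoding RNA, was at 0.159 FPKM in mNRPCs and 174.9 FPKM in retina. Peg3 was at 0.181 FPKM and 29.6 FPKM, and Ndn, a gene of postmitotic neurons, at 4.55 FPKM and 112.5 FPKM. Igf2r, the receptor that clears IGF2, was the exception, at 75.9 FPKM in mNRPCs and 4.23 FPKM in retina. Gnas was at 655 FPKM and 416 FPKM. Plagl1 was at 12.1 FPKM and 10.4 FPKM, a difference of 0.20 that turned to -0.28 with the libraries rescaled to the same sum. With rod and cone genes left out before that rescaling it was -0.34.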
